A study of Rattus norvegicus with 70 samples.

Results

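Transcripts of the lipases that release fatty acids from stored fat, and of the proteins that sit on the lipid droplet beside them, were followed across 3 adipose depots of rats. The set held 10 genes picked by name: the lipase genes Pnpla2, Lipe and Mgll, the regulators Abhd5 and G0s2, the perilipin genes Plin1, Plin2, Plin4 and Plin5, and the patatin-like gene Pnpla3. Matched by NCBI gene number, 9 of the 10 had a row in all 6 count tables, out of 15319 genes in each, and all 9 passed the filter on low counts in every comparison; Plin4 is not analysed here. Triglyceride in a fat cell is cut stepwise, by adipose triglyceride lipase (Pnpla2), then hormone-sensitive lipase (Lipe), then monoglyceride lipase (Mgll). Perilipin 1 coats the large droplet of white fat cells and holds Abhd5, the co-activator of Pnpla2, until adrenergic signalling through protein kinase A releases it, and G0s2 inhibits Pnpla2. In brown fat the released fatty acids feed heat production, and perilipin 5 is known from tissues that burn fatty acids.

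The 70 RNA-seq libraries came from adolescent Sprague-Dawley rats, an outbred stock, that breathed air carrying PCB 52, a chlorinated biphenyl, through a nose-only system, or that were in the sham group. Exposure ran for 4 h a day over 28 days and began at 39 days of age in males and at 42 days in females, so sex and age at the start cannot be told apart. The depots were BAT (brown), SAT (subcutaneous) and VAT (visceral); the labels do not say from which body sites, and they give no concentration of PCB 52. There were 12 groups of 6 libraries by sex, depot and treatment, except male VAT of PCB 52 rats and female SAT of sham rats, with 5 each. Libraries are named here by the number in their title, read as the number of the rat, though no label states this. Nothing in the labels says whether tissue was pooled.

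Levels below are given as CPM, the usual scaling of a gene's counts by the total of its library, and library totals ran from 4604116 to 9707132 counts. A sum of transcripts from bulk tissue cannot tell fewer cells of a type from less RNA per cell, and levels of different genes are not compared, since CPM takes no account of transcript length. The depot labels were checked with marker genes. Ucp1, the heat-producing protein of brown fat, had a median of 5960 CPM in BAT and a median of 0 CPM in SAT and in VAT. The summed level of 12 genes of mature fat cells was 21956 to 35532 CPM in BAT, 6164 to 43717 CPM in SAT and 24338 to 50510 CPM in VAT. The milk protein gene Csn1s1 reached 213614 CPM in SAT, against at most 0.301 CPM in BAT and 1.67 CPM in VAT. Several libraries stood apart from their groups. The BAT library of female PCB 52 rat 24 had 114 CPM of Ucp1 and the highest summed level of 14 skeletal muscle genes of all BAT libraries (64238 CPM). The SAT library of female sham rat 8 had no count for 512 of 9775 genes well covered in SAT, and the VAT library of male PCB 52 rat 13 had none for 498 of 9382 genes well covered in VAT. The SAT library of male PCB 52 rat 19 held 51789 CPM of Mup4, a gene with a median of 0 CPM in each depot, and the VAT libraries of female sham rats 4 and 8 held 338 and 230 CPM of Ucp1. The VAT library of male sham rat 11 was also counted among them. It had 4379 CPM of the fat cell gene Adipoq, the lowest value in VAT.

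The promoter windows of Pnpla3, Plin2 and Plin5 are shown because the results below turn on these members. They come from RefSeq on the GRCr8 assembly, which is not the build used for the counts, and run 5′ to 3′ on the gene's strand (chr7:117173278-117173577, plus strand for Pnpla3, chr5:106228969-106229268, minus strand for the first listed start of Plin2, and chr9:1033235-1033534, minus strand for Plin5). Capitals mark matches, on either strand, to the GC box GGGCGG, the CCAAT box CCAAT and the E-box CACGTG; adjoining GC boxes in Plin5 form 1 run.
Pnpla3: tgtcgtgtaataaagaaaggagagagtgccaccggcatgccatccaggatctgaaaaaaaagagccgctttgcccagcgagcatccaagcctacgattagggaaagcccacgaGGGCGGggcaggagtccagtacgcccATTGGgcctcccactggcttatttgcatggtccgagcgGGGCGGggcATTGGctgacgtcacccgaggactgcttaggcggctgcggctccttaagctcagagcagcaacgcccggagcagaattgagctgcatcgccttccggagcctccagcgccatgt
Plin2: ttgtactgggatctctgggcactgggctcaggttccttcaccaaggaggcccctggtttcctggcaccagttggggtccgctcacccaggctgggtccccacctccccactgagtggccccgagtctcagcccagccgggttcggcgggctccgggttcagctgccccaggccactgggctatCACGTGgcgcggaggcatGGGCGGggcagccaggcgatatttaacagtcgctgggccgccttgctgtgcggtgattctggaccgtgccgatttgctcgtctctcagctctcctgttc
Plin5: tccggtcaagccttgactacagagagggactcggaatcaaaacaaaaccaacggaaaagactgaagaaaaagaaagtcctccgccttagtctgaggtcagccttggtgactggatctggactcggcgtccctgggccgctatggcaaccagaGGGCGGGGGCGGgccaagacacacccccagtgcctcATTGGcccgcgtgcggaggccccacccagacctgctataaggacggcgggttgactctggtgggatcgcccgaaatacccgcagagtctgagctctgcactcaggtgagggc

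Windows were found for 8 of the 9 measured members, with 2 starts for Plin2. The E-box, read by basic helix-loop-helix factors, was found at position -67 from the start in Plin2 and at -74 in Mgll, and 6.42% of 33469 rat promoter windows hold one. Pnpla3 held 2 GC boxes, at -137 and -73, and 2 CCAAT boxes on the opposite strand, at -111 and -64. GC boxes were in 33.1% of all windows and CCAAT boxes in 37.5%. The direct repeat read by the PPAR factors of fat cells, 2 copies of AGGTCA spaced by 1 base, is in 0.0538% of windows, the core TCACCCCAC of a sterol element is in 0.484%, and none of the members' windows held either. These are matches of letters, not measured binding.

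The depots were compared in sham rats, with a quasi-likelihood test of edgeR fitted over all genes and Benjamini-Hochberg adjustment, at an adjusted p of 0.05. BAT had the higher level of most members when set against SAT in females, and of fewer in males. In males, 4 of 9 members were higher in BAT than in SAT and none lower, where 28% of 11580 genes were higher and 55.3% differed either way. In females, 7 of 9 were higher and none lower, where 20.3% of 11799 genes were higher and 47.6% differed. Between SAT and VAT in males, 1 member was lower and 2 were higher in SAT, where 10.6% of genes were lower, 12.4% higher and 23% differed. In females 8 of 9 were lower in SAT and 1 higher, where 16.5% of genes were lower, 23.2% higher and 39.7% differed. Between BAT and VAT, 4 were higher in BAT and none lower in males, where 26.5% of genes were higher and 49.8% differed, and 3 were higher and 1 lower in females, where 14.3% were higher, 11.2% lower and 25.5% differed. The median log2 difference of the 9 members for BAT over SAT was 0.91 in males, against -0.04 over all genes tested, and 2.58 in females, against -0.14 over all genes. For SAT over VAT it was -0.61 in males, against -0.01 over all genes, and -3.04 in females, against 0.10. The 3 contrasts within a sex share their libraries. The lower levels in SAT stand beside its level of mature fat cell genes, which in sham males was 7757 to 28339 CPM in SAT against 24338 to 46242 CPM in VAT, and in sham females 6834 to 10307 CPM in 4 of 5 SAT libraries, with 43717 CPM in rat 8, against 36423 to 47153 CPM in VAT; its part in the differences was not tested.

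**Figure D1:**
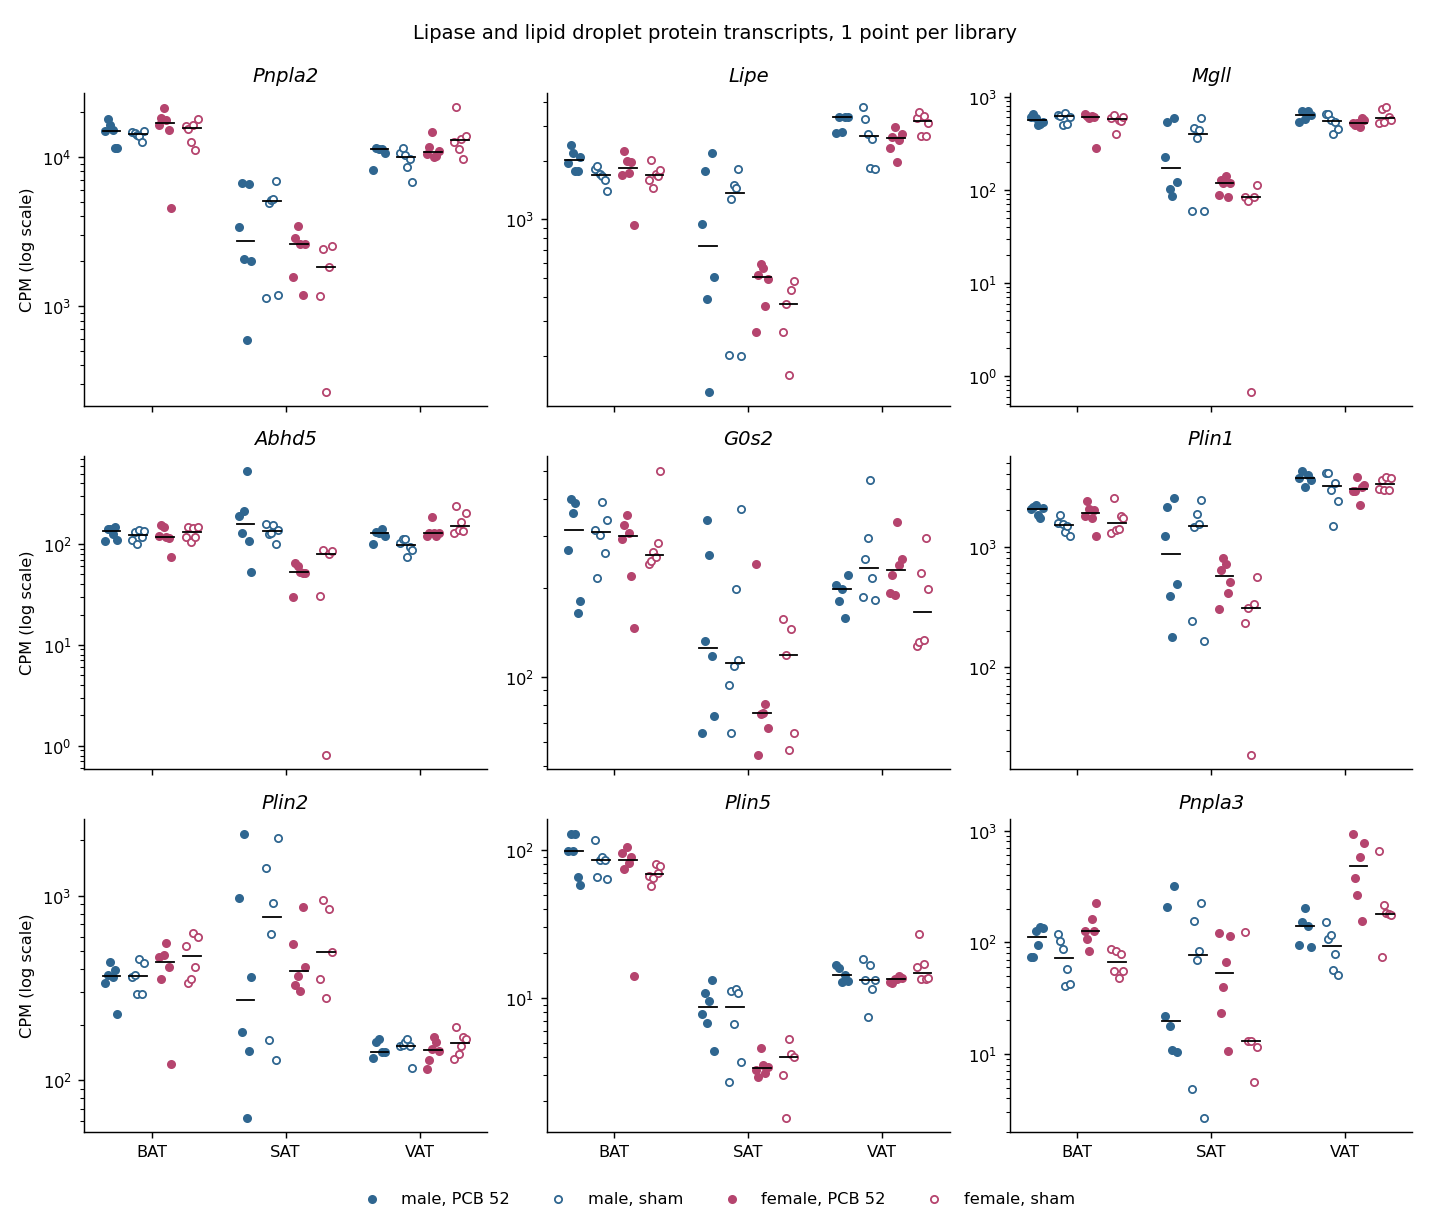
CPM of the 9 measured members in each library (log scale), by depot; filled points are PCB 52 and open points sham, male groups stand left of female groups, and bars are group medians. Plin5 separates BAT from the other depots apart from 1 library at 14.04 CPM, Plin2 stays between 115 and 194 CPM in VAT, and Pnpla3 in SAT spreads from 2.68 to 323 CPM.

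Pnpla2 makes the triglyceride lipase that starts the breakdown of stored fat. In male sham rats it ran from 12559 to 14832 CPM in BAT (median 14279), from 1128 to 6892 CPM in SAT (median 5056) and from 6826 to 11538 CPM in VAT (median 9974). In female sham rats it ran from 11059 to 18052 CPM in BAT (median 15731) and from 9709 to 21475 CPM in VAT (median 12930), and the 5 SAT libraries had 266, 1166, 1825, 2397 and 2530 CPM. No SAT library reached the lowest BAT library in either sex, and in males no VAT library did either. BAT exceeded SAT by 2.05 (SE 0.360, adjusted p = 0.000138) on the log2 scale in males and by 3.54 (SE 0.398, adjusted p = 1.85e-06) in females. SAT was below VAT, with a log2 difference of -1.10 (SE 0.351, adjusted p = 0.0312) in males and -3.25 (SE 0.393, adjusted p = 6.78e-06) in females. The male call was missed with only SAT and VAT in the fit (adjusted p = 0.0999) and without SAT rat 1 or VAT rat 1, 3 or 5 (at most 0.0601). Against VAT, BAT was higher by 0.94 in males (SE 0.350, adjusted p = 0.0321), a call kept in 10 of 18 fits without 1 library and missed without BAT rat 1, 5, 7 or 11 or VAT rat 1, 5, 9 or 11 (at most 0.0862) and with no filter on low counts (0.0535); in females the difference was 0.29 (SE 0.335, adjusted p = 0.583).

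Lipe, the hormone-sensitive lipase that cuts diglycerides, had its highest medians in VAT in both sexes, and only in females was VAT shown to be above BAT. In male sham rats it ran from 1395 to 1886 CPM in BAT (median 1689), from 198 to 1812 CPM in SAT (median 1366) and from 1820 to 3752 CPM in VAT (median 2666), so no SAT library reached the lowest VAT library. In female sham rats BAT held 1448 to 2020 CPM (median 1691), the 5 SAT libraries held 159, 266, 367, 434 and 485 CPM, and VAT held 2679 to 3536 CPM (median 3213), with no overlap between any 2 depots. In males the difference between SAT and VAT, -1.19 (SE 0.423), had an adjusted p of 0.0502, with 0.0168 by DESeq2, BAT and SAT differed by 0.91 (SE 0.421, adjusted p = 0.0759), and BAT and VAT by -0.28 (SE 0.418, adjusted p = 0.597). In females BAT was above SAT by 2.58 (SE 0.210, adjusted p = 6.67e-08) and below VAT by a log2 difference of -0.70 (SE 0.185, adjusted p = 0.00965), and SAT was below VAT by -3.29 (SE 0.217, adjusted p = 2.05e-08).

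Mgll, whose product cuts the last fatty acid from monoglycerides, had medians of 618 CPM in BAT, 403 CPM in SAT and 550 CPM in VAT of male sham rats, where SAT spread from 59.7 to 590 CPM. In female sham rats the SAT libraries held 0.676, 75.5, 84.0, 84.1 and 113 CPM, against 403 to 643 CPM in BAT and 528 to 768 CPM in VAT. The lowest value, of rat 8, was 5 counts. BAT exceeded SAT by 1.11 (SE 0.411, adjusted p = 0.0286) in males and 3.36 (SE 0.584, adjusted p = 0.000168) in females, and SAT was below VAT in females by -3.34 (SE 0.584, adjusted p = 0.000274). The male call was missed with only BAT and SAT in the fit (adjusted p = 0.0708) and without BAT rat 1, 7 or 11 (at most 0.0552). BAT and VAT differed by 0.51 in males and 0.02 in females, with adjusted p of 0.313 and 0.986.

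Of the regulators of Pnpla2, Abhd5 is the co-activator. It had 98.9 to 136 CPM in BAT (median 124), 100 to 158 CPM in SAT (median 133) and 74.4 to 112 CPM in VAT (median 98.7) of male sham rats, and was higher in BAT than in VAT by 0.70 (SE 0.135, adjusted p = 0.000322) and in SAT than in VAT by 0.64 (SE 0.135, adjusted p = 0.00390). In female sham rats the order was another one: 105 to 148 CPM in BAT (median 131), 0.812, 30.4, 78.9, 84.5 and 86.6 CPM in SAT, and 128 to 236 CPM in VAT (median 152). There BAT exceeded SAT by 1.58 (SE 0.537, adjusted p = 0.0221) and SAT was below VAT by -1.79 (SE 0.540, adjusted p = 0.0147), and both calls were lost when only the 2 depots were fitted (adjusted p = 0.0672 and 0.0572). The SAT value of rat 8 was 6 counts.

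G0s2, the inhibitor, had medians of 310 CPM in BAT, 112 CPM in SAT and 234 CPM in VAT of male sham rats and of 260, 119 and 166 CPM in the same depots of female sham rats. Its groups overlapped in all but 1 of these contrasts: in females the highest SAT library, at 157 CPM, lay below the lowest BAT library, at 242 CPM. BAT was above SAT by 1.18 (SE 0.366, adjusted p = 0.0114) in males and by 1.72 (SE 0.285, adjusted p = 0.000105) in females, where it was also above VAT by 0.90 (SE 0.262, adjusted p = 0.0179), or by 0.67 without BAT rat 12 (0.0566). SAT was below VAT in females by -0.83 (SE 0.277, adjusted p = 0.0250), a call missed without SAT rat 12 or VAT rat 6 or 10 (at most 0.0638). The difference between BAT and VAT in males, 0.57 (SE 0.362), did not pass (adjusted p = 0.203).

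Among the perilipins, Plin5 separated the depots most. Its BAT libraries held 63.3 to 117 CPM (median 85.8) in male and 56.7 to 80.5 CPM (median 68.4) in female sham rats. SAT held 2.72 to 11.5 CPM (median 8.74) in males, and 1.55, 3.01, 4.01, 4.18 and 5.28 CPM in females. VAT held 7.44 to 18.4 CPM (median 13.3) in males and 13.4 to 27.2 CPM (median 14.8) in females. Every BAT library of the sham rats lay above every SAT and VAT library of its sex. BAT over SAT was 3.71 (SE 0.321, adjusted p = 3.36e-08) in males and 4.35 (SE 0.399, adjusted p = 2.22e-07) in females, and BAT over VAT was 3.04 (SE 0.309, adjusted p = 3.04e-07) and 2.21 (SE 0.330, adjusted p = 0.000136). Between SAT and VAT the difference in males of -0.67 (SE 0.303) had an adjusted p of 0.114, and in females SAT was below VAT by -2.13 (SE 0.368, adjusted p = 0.000246). In the BAT library of PCB 52 rat 24, with its low Ucp1, Plin5 was at 14.04 CPM.

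Plin1, the perilipin of the white fat cell droplet, was highest in VAT by its medians: 1512 CPM in BAT, 1496 CPM in SAT and 3179 CPM in VAT of male sham rats, where SAT ran from 166 to 2443 CPM and VAT from 1476 to 4083 CPM. In female sham rats BAT held 1289 to 2550 CPM, SAT held 18.7, 231, 310, 331 and 559 CPM, and VAT held 2951 to 3812 CPM, with no overlap between any 2 depots. Only the contrasts with female SAT passed: BAT over SAT was 2.91 (SE 0.446, adjusted p = 5.07e-05) and SAT over VAT was -3.73 (SE 0.465, adjusted p = 9.57e-06). BAT over VAT was -0.64 in males (SE 0.463, adjusted p = 0.263) and -0.82 in females (SE 0.389, adjusted p = 0.136); with only these depots in the fit both passed, at adjusted p of 0.0148 and 0.00127, and the female one also without SAT rat 8 (0.00406).

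Plin2 coats small droplets in many cell types, milk fat droplets of the mammary epithelium included, and it ran against the other members in SAT. VAT held 117 to 169 CPM (median 154) in male and 131 to 194 CPM (median 160) in female sham rats, the narrowest range of the 3 depots. BAT held 295 to 455 CPM (median 367) in males and 339 to 630 CPM (median 471) in females. SAT held 129 to 2052 CPM (median 764) in males, and 278, 355, 494, 845 and 953 CPM in females. SAT exceeded VAT by 2.73 (SE 0.512, adjusted p = 0.00173) in males and by 1.79 (SE 0.269, adjusted p = 6.18e-05) in females, and in males the groups overlapped. BAT exceeded VAT with no overlap, by 1.66 (SE 0.494, adjusted p = 0.00962) in males and by 1.77 (SE 0.261, adjusted p = 0.000125) in females. Between BAT and SAT edgeR made no call in either sex. With DESeq2 BAT was below SAT in males by a log2 difference of -1.115 (SE 0.468, adjusted p = 0.0351). In females that difference was 0.02 (SE 0.276, adjusted p = 0.963). Plin2 was the member that was higher in SAT than in VAT in both sexes; Abhd5 was so in males and lower in females.

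Pnpla3 makes a lipid droplet protein that in human liver carries a common variant tied to fatty liver, and its role in fat depots is less settled. Its levels in SAT and in female VAT spread widely. In male sham rats BAT ran from 40.7 to 118 CPM (median 72.8), SAT from 2.68 to 224 CPM (median 76.4) and VAT from 51.1 to 151 CPM (median 92.7). In female sham rats BAT ran from 47.7 to 86.7 CPM (median 66.9), SAT held 5.61, 11.6, 13.1, 13.1 and 123 CPM, and VAT ran from 74.2 to 664 CPM (median 180). In males none of the 3 contrasts exceeded 0.07 on the log2 scale. Their errors were wide (SE 0.70 in each by DESeq2), so equal levels were not shown. In females SAT was below VAT by -3.04 (SE 0.71, adjusted p = 0.00285), a call kept in 17 of 17 fits without 1 library. BAT over VAT in females, -1.71 (SE 0.627), had an adjusted p of 0.0543 and passed with only these depots in the fit (0.00514), with DESeq2 (0.0189) and without SAT rat 2, 8 or 10 or VAT rat 4 (down to 0.0105). The value of 1 rat weighed on the female contrasts: without the SAT library of rat 2, BAT over SAT was 2.73 in place of 1.33 and passed (adjusted p = 0.000822), and without its VAT library BAT over VAT was -1.09 (adjusted p = 0.200).

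The same contrasts in PCB 52 rats rest on other animals. There, 3 of 9 members in males and 8 of 9 in females differed between BAT and SAT (39.3% and 63.4% of genes), 1 and 3 between BAT and VAT (32.0% and 44.1% of genes), and 1 and 9 between SAT and VAT (10.2% and 54.6% of genes). Plin5 was above SAT in BAT by 3.59 in males and 4.95 in females, and above VAT by 3.05 and 2.72. Plin2 was above VAT in SAT by 2.43 in males (adjusted p = 0.0458) and 1.38 in females, and above VAT in BAT by 1.55 in males, which missed the threshold (adjusted p = 0.106), and by 1.65 in females (adjusted p = 0.000304). Several calls of the sham rats were missed. In males Abhd5 was at 0.36 (adjusted p = 0.572) for BAT and 0.95 (0.154) for SAT against VAT, and Pnpla2 at 0.75 (0.212) and -1.43 (0.05003), so that both SAT differences were larger than in sham rats and had wider errors (SE 0.441 and 0.443). G0s2 for BAT over SAT in males was 0.89 (adjusted p = 0.109). In females, BAT over VAT was -0.34 for Lipe (adjusted p = 0.230) and 0.38 for G0s2 (0.342), both nearer to 0 than in sham rats. Pnpla3 was called in females where it had not been in sham rats, at 1.59 for BAT over SAT (adjusted p = 0.0111) and -1.76 for BAT over VAT (0.00934). Whether a difference between depots depended on exposure was tested over all 3 depots at once, as given below with the effects of PCB 52.

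**Figure D2:**
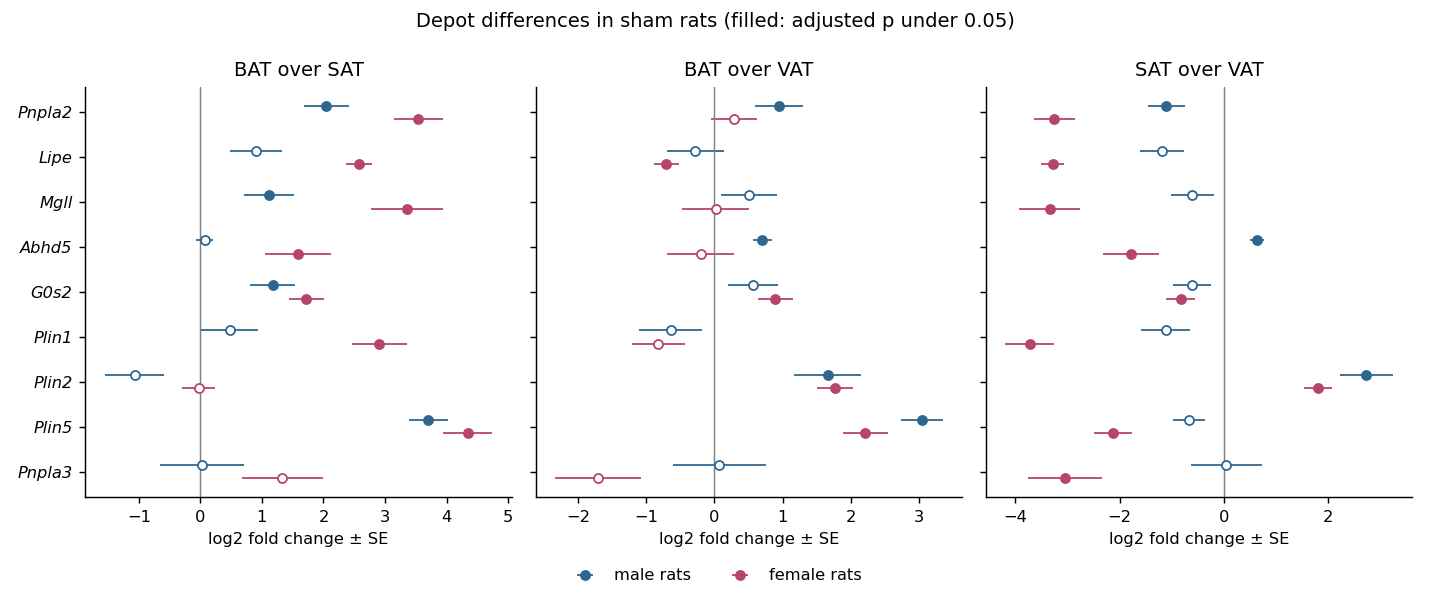
Log2 differences between depots in sham rats with standard errors, for each member, male rats above female rats; filled points passed an adjusted p of 0.05. All points of Plin5 for BAT lie above 2, and SAT over VAT is negative for most members but positive for Plin2 in both sexes.

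Other genes of the lipid droplet and of lipolytic signalling were read from a pair of lists, of which 17 of 20 and 27 of 29 genes were measured. For BAT over SAT, 9 of 16 tested droplet genes differed in males, 7 of them higher, and 12 of 16 in females, 10 of them higher; of 26 tested signalling genes, 17 differed in males, 12 of them higher, and 20 in females, 18 of them higher. Of all genes 55.3% differed in males and 47.6% in females, so the male droplet genes were near that share. Cidea, a droplet protein typical of brown fat, was higher in BAT by 5.17 (SE 0.301) in males and 7.30 (SE 0.531) in females. The G protein gene Gnas and the adenylyl cyclase gene Adcy3, both upstream of protein kinase A, were higher by 3.75 and 2.78 in males and by 4.18 and 3.41 in females. The brake on that pathway, the alpha-2 adrenoceptor gene Adra2a, was lower in BAT of males by a log2 difference of -2.60 (SE 0.337). It was 1 of 5 signalling genes lower in BAT in males, and in females 2 were lower. The natriuretic peptide receptor gene Npr3 was higher in BAT of females by 5.11 (SE 0.336). For SAT over VAT in males, 7 of 26 signalling genes differed, 5 of them lower, and 5 of 16 droplet genes, 3 of them lower, where 23% of all genes differed. In females 21 of 26 signalling genes differed, 20 of them lower, among them the glycerol channel gene Aqp7 (-3.42), the phosphodiesterase gene Pde3b (-3.35) and the kinase subunit gene Prkar2b (-2.87), and 9 of 16 droplet genes differed, 7 of them lower, among them Cidec (-3.39) and Fitm2 (-2.86), where 39.7% of all genes differed. For BAT over VAT, 14 of 26 signalling and 11 of 16 droplet genes differed in males (49.8% of all genes) and 10 of 26 and 6 of 16 in females (25.5%). Cidea is also on the list of brown fat markers used to check the depot.

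Within SAT the libraries differed widely in their content of mammary and epithelial transcripts, and the members moved with it unequally. The summed level of 14 such genes was 17.001 to 243314 CPM in male PCB 52 rats and 13.01 to 234450 CPM in male sham rats, and 4630 to 40526 CPM in female PCB 52 rats and 6773 to 31213 CPM in female sham rats. Plin2 was at 2168 CPM in the male PCB 52 library with the highest level (rat 17), and at 145 CPM in the one with the lowest (rat 21). In male sham rats it was at 1406 and 2052 CPM in the libraries with the highest levels (rats 1 and 11), and at 129 CPM in the lowest (rat 9). In these male libraries Pnpla3 ran the other way, with 17.8 CPM in PCB 52 rat 17 and 323 CPM in rat 21. Sham rats 1 and 11 had 4.89 and 2.68 CPM, and sham rat 9 had 224 CPM. In females the highest Pnpla3 of each group did not lie in a library low in casein. PCB 52 rat 14 had 120 CPM of Pnpla3 beside 25007 CPM of Csn1s1, and sham rat 2 had 123 CPM beside 13122 CPM. In a fit over all 23 SAT libraries with a term for the 4 groups, Plin2 was higher by 0.28 (SE 0.0452, adjusted p = 0.000234) and Pnpla3 lower by a log2 change of -0.28 (SE 0.0868, adjusted p = 0.0438) for each doubling of the mammary level. These were 2 of 9 members, where 10.7% of 12695 genes moved with the level, 7.06% upward and 3.68% downward.

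Lipe (-0.14, SE 0.0468), Plin1 (-0.15, SE 0.0574), Mgll (-0.15, SE 0.0588) and Pnpla2 (-0.12, SE 0.0465) had adjusted p of 0.0563, 0.0925, 0.102 and 0.114. Without the 2 SAT libraries that stood apart (rats 8 and 19) these 4 passed as well, at adjusted p from 0.00473 to 0.0151, so that 6 of 9 members were called, where 30.4% of 12643 genes were. With all libraries, Abhd5 (0.05, adjusted p = 0.674) and G0s2 (0.09, adjusted p = 0.172) had positive values. Pnpla3 kept its call in 14 of 23 fits without 1 library and lost it without PCB 52 rat 13, 17, 20, 21 or 23 or sham rat 1, 3, 9 or 11 (at most 0.167, without rat 21), and Plin2 kept its call in 23 of 23. Caseins take counts from all other genes in these libraries, up to 213614 CPM for Csn1s1 alone; the test scales by TMM factors, and CPM does not. The summed level of mature fat cell genes in SAT of sham males was 7757 and 9718 CPM in rats 11 and 1, and 28339 CPM in rat 9, and its part in these changes was not tested.

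**Figure D3:**
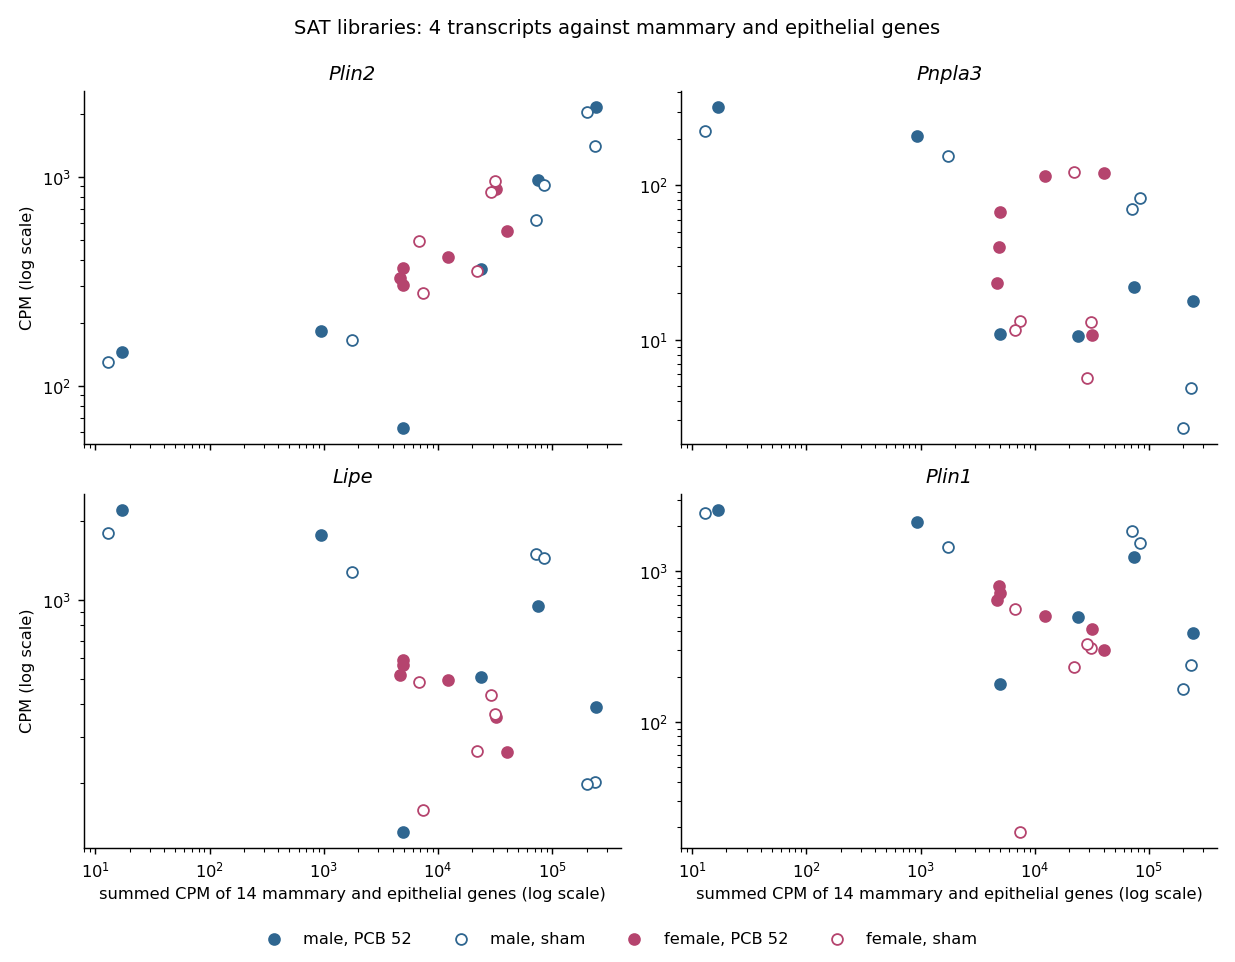
CPM of Plin2, Pnpla3, Lipe and Plin1 in the 23 SAT libraries (log scale) against the summed CPM of 14 mammary and epithelial genes (log scale); filled points are PCB 52, open points sham. Plin2 climbs to 2168 CPM at the right while Pnpla3 drops to 2.68 CPM, both in male libraries, and the low point of Plin1 at 18.7 CPM is female sham rat 8.

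In BAT the level of skeletal muscle genes ranged from 369 to 64238 CPM, and no member was called for it. The changes per doubling lay between -0.06 (G0s2) and 0.07 (Pnpla3). With edgeR 0 of 9 members and 4.28% of 11306 genes were called. At an unadjusted p under 0.05 there were 0 members and 1143 genes, and DESeq2 called 0 members and 3.93% of 14463 genes. The BAT library of rat 24, highest in muscle genes, had the lowest Pnpla2 (4516 CPM), Lipe (937 CPM), Mgll (279 CPM) and Plin2 (123 CPM) of all BAT libraries and the highest Pnpla3 (223 CPM).

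The sexes were compared in sham rats. In VAT, Abhd5 and Pnpla3 were lower in males, 2 of 9 members, where 11.5% of 11203 genes differed, 5.34% lower and 6.19% higher. Abhd5 ran from 74.4 to 112 CPM in males (median 98.7) and from 128 to 236 CPM in females (median 152), without overlap, a log2 difference of -0.88 (SE 0.178, adjusted p = 0.00739) that passed in 12 of 12 fits without 1 library. Pnpla3 ran from 51.1 to 151 CPM in males and from 74.2 to 664 CPM in females, with overlap. Its difference of -1.51 (SE 0.452, adjusted p = 0.0469) passed in 2 of 12 such fits (without male rat 1 or female rat 4), was -0.89 without female rat 2, and missed the threshold with no filter on low counts (adjusted p = 0.0672). Pnpla2 differed by -0.61 (SE 0.229, adjusted p = 0.0993, with 0.0298 by DESeq2) and the other 6 members by -0.41 to 0.47. Of the listed signalling genes 7 of 26 differed, 6 of them lower in males, among them Angptl8 (-2.71, SE 0.435), a secreted inhibitor of lipoprotein lipase, and the lysophospholipase gene Pnpla7 (-1.35, SE 0.335), while the natriuretic peptide receptor gene Npr3 was higher (1.46, SE 0.217). Of 15 tested droplet genes 3 differed, with Hsd17b11 (0.61) and Cav1 (0.47) higher in males and Lpcat3 (-0.45) lower.

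In SAT all 9 members had the higher fitted level in males, by 0.70 (G0s2) to 2.45 (Mgll), and none passed with edgeR, where 1.09% of 11626 genes differed, 0.344% higher and 0.748% lower. At an unadjusted p under 0.05 there were 5 members (Lipe, Plin1, Mgll, Pnpla2 and Abhd5), beside 2277 of the 11626 genes. DESeq2 called 4 (Lipe, Plin1, Mgll and Pnpla2), where it called 8.41% of 12400 genes. Plin1 ran from 166 to 2443 CPM in males, against 18.7 to 559 CPM in females, a difference of 2.39 (SE 0.777, adjusted p = 0.143). Abhd5 ran from 100 to 158 CPM in males and from 0.812 to 86.6 CPM in females, without overlap, and without the library of female rat 8 its difference of 1.23 (SE 0.301) passed (adjusted p = 0.0458), where 4.78% of genes were called. Cidea (2.45, SE 0.298) and the lipoprotein lipase gene Lpl (2.41, SE 0.493) were higher in males. Each was the only call of its list, of 16 droplet and 26 signalling genes tested. The mammary level of the male libraries was 13.01 to 234450 CPM against 6773 to 31213 CPM in the female ones. The fat cell gene Adipoq ran from 402 to 5440 CPM in the male libraries (median 4029) and from 713 to 2525 CPM in the female ones (median 985). Summed levels of mature fat cell genes in these groups are given above with the depot differences. The part of mammary and fat cell content in these values was not tested. In BAT no member differed by edgeR, at an unadjusted p under 0.05 or by DESeq2, with differences of -0.35 (Plin2) to 0.32 (Plin5). There edgeR called 0.0652% of 10730 genes, 0.0373% higher and 0.028% lower. At an unadjusted p under 0.05 there were 727 of these genes, and DESeq2 called 0.588% of 12239.

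Exposure was compared within each sex and depot. With edgeR 0 of 9 members passed in each of the 6 comparisons, where 0% of the genes tested passed as well, 10686 to 11824 genes by comparison. At an unadjusted p under 0.05, BAT held 1 member in males (Plin1) and 1 in females (Pnpla3). Of all genes 1054 of 10687 and 388 of 10686 were under it there. VAT held 1 in males (Abhd5) and 1 in females (Pnpla3), beside 715 of 11357 and 1066 of 11143 genes. SAT held 0 in either sex, beside 165 of 11459 genes in males and 605 of 11824 in females. DESeq2 called 0 members in all 6, with 0% to 0.354% of genes called. Over both sexes, 0 of 9 passed in BAT (0.00918% of 10891 genes), in SAT (0%) and in VAT (0%). The sexes' effects were compared by the interaction, where 0 of 9 passed in BAT, SAT and VAT, with 0% of genes in each, and in neither sex did the effect on any member differ among depots (0 of 9 and 0% of genes in males and in females). At an unadjusted p under 0.05 the fits over both sexes held 2 members in BAT, 0 in SAT and 1 in VAT. Of all genes they held 1206 of 10891, 325 of 11946 and 786 of 11452. The interaction held 0, 0 and 2 members, beside 266 of 11032, 792 of 12157 and 1243 of 11664 genes. The depot tests held 0 members in each sex, beside 592 of 12218 genes in males and 1092 of 12303 in females. DESeq2 called 1 member over both sexes in BAT (0.731% of genes) and 0 in the other tests (at most 0.133% of genes). The fits over both sexes and the interaction share all libraries with those within a sex. The genes of both lists gave no call in any of these comparisons. The median change of the 9 members lay between -0.21 (female VAT) and 0.29 (female SAT).

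Pnpla3 had the largest fitted change of the 9 in BAT and VAT of both sexes. In BAT it ran from 73.5 to 137 CPM in male PCB 52 rats (median 111), against 40.7 to 118 CPM in male sham rats (median 72.8), and from 84.2 to 223 CPM in female PCB 52 rats (median 127), against 47.7 to 86.7 CPM in female sham rats (median 66.9). In females 5 of 6 PCB 52 libraries lay above every sham library. The log2 change was 0.43 in males (SE 0.282, adjusted p = 0.581) and 0.99 in females (SE 0.222, adjusted p = 0.9995 after an unadjusted p of 0.000666), and without rat 24 the female value was 0.84 (adjusted p = 0.691). Over both sexes it was 0.71 (SE 0.193, adjusted p = 0.166), with 0.129 to 0.276 in fits without 1 library, while DESeq2 called it (0.70, SE 0.195, adjusted p = 0.0436) among 0.731% of 10811 genes. With the muscle level as a covariate the value over both sexes was 0.79 (adjusted p = 0.142).

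In VAT Pnpla3 was at 91.2, 94.8, 139, 152 and 201 CPM in male PCB 52 rats, against 51.1 to 151 CPM in male sham rats (median 92.7), and ran from 154 to 941 CPM in female PCB 52 rats (median 478), against 74.2 to 664 CPM in female sham rats (median 180). The groups overlapped in both sexes. The change was 0.52 in males (SE 0.314, adjusted p = 0.747) and 1.10 in females (SE 0.511, adjusted p = 0.522), and 0.83 over both sexes (SE 0.337, adjusted p = 0.648). In SAT, where it spread most, it ran from 10.5 to 323 CPM in male PCB 52 rats (median 19.9), against 2.68 to 224 CPM in male sham rats (median 76.4), and from 10.7 to 120 CPM in female PCB 52 rats (median 53.5), while the female sham libraries held 5.61, 11.6, 13.1, 13.1 and 123 CPM. The changes there were 0.14 (SE 1.10) in males, which turned to -0.78 without PCB 52 rat 21, and 0.79 (SE 0.822) in females, which was 2.15 without sham rat 2. With the mammary level as a covariate they were -0.73 (SE 0.808) in males and 0.96 (SE 0.876) in females, and the value over both sexes was 0.03 (SE 0.645) in place of 0.47 (SE 0.719), none passing. The effect in males minus that in females was -0.58 (SE 0.372) in BAT, -0.68 (SE 1.45) in SAT and -0.58 (SE 0.675) in VAT, none passing.

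**Figure D4:**
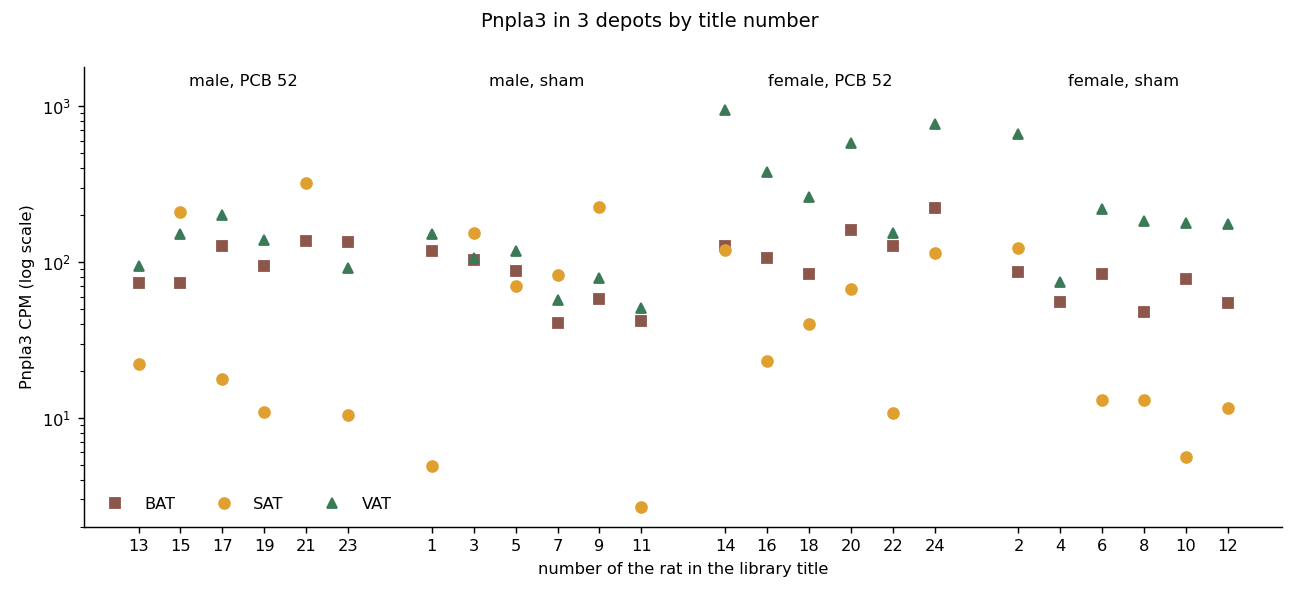
Pnpla3 CPM (log scale) in BAT, SAT and VAT libraries by the number in the library title, in blocks of male PCB 52, male sham, female PCB 52 and female sham rats. Female rats 14 and 2, each high among its group in VAT at 941 and 664 CPM, were also high in SAT at 120 and 123 CPM.

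**Figure D5:**
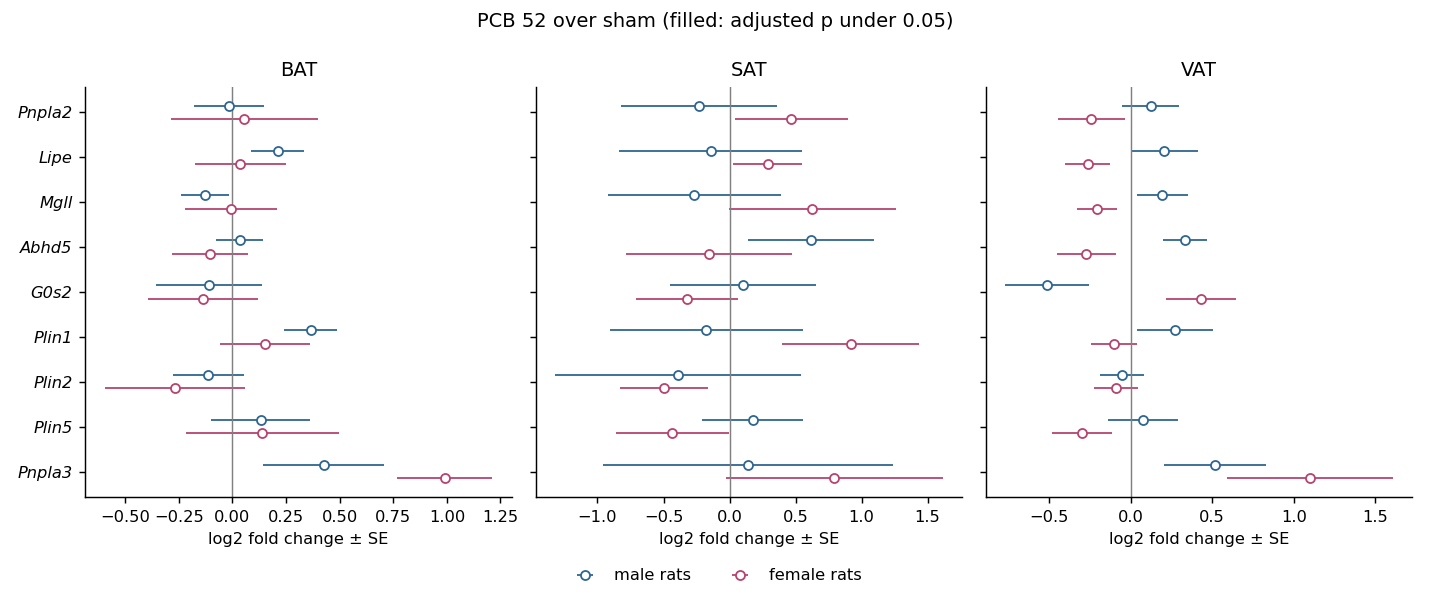
Log2 change of each member in PCB 52 over sham rats with standard errors, by depot, male rats above female rats. All points are open, since none passed an adjusted p of 0.05; Pnpla3 in female BAT, at 0.99, stands farthest from 0 in units of its standard error, and the widest bars are those of SAT.

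No other member passed either, though in SAT some fitted values exceeded that of Pnpla3. In SAT of females Plin1 had the largest of the 9, with 303 to 802 CPM in PCB 52 rats (median 573), against 18.7, 231, 310, 331 and 559 CPM in sham rats, a change of 0.92 (SE 0.518, adjusted p = 0.768) that was 0.65 without sham rat 8. Mgll there was at 0.63 (SE 0.632, adjusted p = 0.896), or 0.33 without rat 8. In SAT of males Abhd5 ran from 52.9 to 535 CPM in PCB 52 rats, against 100 to 158 CPM in sham rats, a change of 0.62 (SE 0.480) that was 0.05 without PCB 52 rat 19. The groups overlapped in all 3. In BAT of males Plin1 ran from 1730 to 2230 CPM in PCB 52 rats (median 2071), against 1216 to 1823 CPM in sham rats (median 1512), with a change of 0.36 (SE 0.123, adjusted p = 0.441), and in females its change was 0.15 (SE 0.210). In VAT of males Abhd5 was at 99.7, 119, 128, 133 and 140 CPM in PCB 52 rats, against 74.4 to 112 CPM in sham rats, a change of 0.33 (SE 0.137, adjusted p = 0.747), against -0.27 (SE 0.181) in females. G0s2 in VAT was at 158, 181, 199, 205 and 221 CPM in male PCB 52 rats, against 182 to 466 CPM in male sham rats, and at 189 to 336 CPM in female PCB 52 rats, against 127 to 295 CPM in female sham rats. Its changes were -0.51 (SE 0.257) in males and 0.43 (SE 0.218) in females. Their difference, -0.95 (SE 0.352), had an unadjusted p of 0.0130 and an adjusted p of 0.406, and that of Abhd5, 0.60 (SE 0.241), an adjusted p of 0.423. For the 3 lipases the 95% intervals of the change over both sexes were -0.33 to 0.38 for Pnpla2, -0.10 to 0.35 for Lipe and -0.30 to 0.17 for Mgll in BAT, and -0.34 to 0.21, -0.29 to 0.21 and -0.22 to 0.19 in VAT. In SAT they were wider: -0.65 to 0.86, -0.70 to 0.84 and -0.78 to 1.11.

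The members also differed in how they varied together around their group means, described here over 70 libraries without a test, since libraries share depth and tissue content. Lipe and Plin1 had a Spearman rho of 0.910, Pnpla2 and Lipe 0.865 and Mgll and Plin1 0.839. Plin2 and Pnpla3 had -0.399 and Abhd5 and Pnpla3 -0.416, and G0s2 lay between -0.232 and 0.370 with every other member. Of 12616 genes compared and with the members left out, those most like Pnpla2 were Kcnk3 (0.903), itself on the brown fat marker list, Acad10 (0.882) and Vegfb (0.876). For Lipe they were Abhd15 (0.845), Csad (0.844) and Pck1 (0.843), for Plin1 Tmem179 (0.894), Csad (0.885) and Abhd15 (0.875), and for Mgll Akt2 (0.895), Dglucy (0.878) and Prkar2b (0.875). Plin5 was most like the mitochondrial genes Mecr (0.770), Cox4i1 (0.765) and Mdh2 (0.758), Plin2 most like Dhrs11 (0.774), Impa2 (0.741) and Eci1 (0.718), and Abhd5 most like Pnpla7 (0.741), Pdk4 (0.740) and Slc22a23 (0.730). Pnpla3 was most like Tectb (0.728), the pyruvate carboxylase gene Pc (0.715) and the acyltransferase gene Mogat2 (0.701), and G0s2 had the weakest likeness, at most 0.597.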

How the data were processed

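RNA was measured by sequencing in 70 adipose libraries. The authors' 6 files, each for 1 sex and 1 depot, hold raw counts as deposited, judged by their whole values and unequal totals. The female VAT file was set down as estimated counts as deposited by the authors, only because 5 of its lines are spreadsheet summaries and not genes. These lines were left out, and its gene lines were tested as counts like those of the other files. All gene lines held whole numbers and needed no rounding. Per the submitters' processing notes, FastQC, HISAT2 and rn6 were used; which program counted, with which annotation and strand setting, is not given in the sources used here, so reads of a gene and an antisense partner cannot be told apart. Of 15319 gene numbers, 15230 matched RefSeq symbols and 89 did not. CPM here is counts over the library total. Tests were edgeR 4.0.16 in R 4.3.3 (TMM scaling, filterByExpr, robust quasi-likelihood F test), fitted on all genes, with Benjamini-Hochberg adjustment at 0.05, and were tested on simulated data; DESeq2 1.42.0 was an alternative, beside other size factors, no filter, each library left out, a rat term, PCB 52 rats, 2 depots only, tissue covariates and the libraries that stood apart left out. Depot contrasts took the 3 depots of a sex in 1 fit. Library totals ran from 4604116 to 9707132 counts. Among 170 pairs of libraries within groups the lowest chi-square per gene was 7.33, so none were merged. The number of unused sample columns was 0. The members and gene lists were chosen with earlier results of these data known. All members are named, up to 4 called genes of smallest p from each other list per comparison, and for likeness the 3 genes of highest Spearman rho over deviations from group means. Within a depot, p-values measure the spread between libraries of separate rats, as the titles give them. The depot contrasts held libraries of 3 depots that share title numbers. Without the rat term their fits took no account of this, so their libraries were treated as if from separate rats.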

Additional observations from a re-analysis of the deposited data

Results flagged for a closer look

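Within each group, the gap of the highest or lowest library to its neighbour was set against the group's range for 9 members, 108 checks in all. In 17 of them 1 library stood far from the others; chance gives that in about 1 in 20 groups, and no explanation was tested.

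The BAT library of female PCB 52 rat 24, with 114 CPM of Ucp1 and the highest muscle level in BAT, was lowest for Pnpla2 (4516 CPM), Mgll (279 CPM) and Plin5 (14.04 CPM). The VAT library of female sham rat 4, with 338 CPM of Ucp1, was highest for Pnpla2 (21475 CPM) and Plin5 (27.2 CPM). Female sham rat 2 was highest for Pnpla3 in both SAT (123 CPM) and VAT (664 CPM). Female PCB 52 rat 18 was highest in VAT for Pnpla2 (14785 CPM) and Abhd5 (186 CPM) and in SAT for Plin5 (4.57 CPM). The SAT library of female PCB 52 rat 14 was lowest for Abhd5 (29.6 CPM) and highest for G0s2 (242 CPM).

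The SAT library of male PCB 52 rat 19, which held Mup4, was highest for Abhd5 (535 CPM). The VAT library of male PCB 52 rat 13, with many genes at 0, was lowest for Pnpla2 (8201 CPM), and that of male sham rat 11 was lowest for Plin2 (117 CPM). In BAT of female sham rats, rat 6 was lowest for Mgll (403 CPM) and rat 12 highest for G0s2 (501 CPM).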

How the results depend on the processing

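No called fold change of a member turned its sign in any alternative. Of 591 recomputed counts of members called, 561 stayed within 1.5 times the reported one, those with DESeq2 size factors in edgeR all among them. DESeq2 called 1 member for PCB 52 in BAT over both sexes, in place of 0 (0.731% of genes in place of 0.00918%). It called 4 for males against females in SAT, in place of 0 (8.41% of genes in place of 1.09%). For SAT against VAT in males it called 5, in place of 3 (26.2% of genes in place of 23%). For the mammary level in SAT it called 5, in place of 2 (17.4% of genes in place of 10.7%). Without the libraries that stood apart the count was 1 for males against females in SAT (4.78% of genes) and 6 for the mammary level (30.4%). With no filter on low counts it was 1 for males against females in VAT, in place of 2 (8.35% of genes in place of 11.5%). In PCB 52 rats it was 1 for BAT against VAT in males, in place of 4 (32% of genes in place of 49.8%). For SAT against VAT in males it was 1 there, in place of 3 (10.2% of genes in place of 23%). The cause was not tested.

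With 1 library left out the counts ran from 0 to 1 for males against females in SAT (1 without female rat 8) and from 1 to 2 in VAT, from 2 to 5 for SAT against VAT in males (5 without SAT rat 9), and from 1 to 6 for the mammary level (6 without female sham rat 8). The shares of all genes in these fits are not given in this section.

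The replicate block used the title number as the rat. Of 68 pairs of libraries with 1 number, 27 correlated over 0.1 and 27 correlated best with their own number. Each library was set against the 5 or 6 libraries of the other depot in its sex and treatment. In male SAT and VAT the median correlation was 0.114 for equal numbers and -0.028 for other numbers. Equal numbers had the higher median in every depot pair except female BAT and SAT (-0.107 against 0.018). No label states the pairing and it did not show in every depot pair, so the block is given here only. With it, the calls in males were 5 members for BAT against SAT, 4 for BAT against VAT and 4 for SAT against VAT. Of all genes 55.8%, 49.4% and 24.7% were called there. In females, in the same order, they were 8, 5 and 9 members, beside 40.7%, 22.4% and 30.8% of genes. The block gave 0 members and 0% of genes where the effect of PCB 52 was compared among depots. The calls it added were those of Pnpla3 in females, at 2.30 for BAT over SAT (adjusted p = 0.00231) and -1.29 for BAT over VAT (0.0368), and of Lipe in males, at 1.08 for BAT over SAT (0.0491) and -1.35 for SAT over VAT (0.0399); it removed none.

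The lowest values rest on few counts: Mgll and Abhd5 in SAT of female rat 8 had 5 and 6 counts. That library had no count for 512 of 9775 genes well covered in SAT. Errors were wide in SAT, where the SE of Pnpla3 for PCB 52 was 1.10 in males and 0.822 in females, against 0.282 and 0.222 in BAT and 0.314 and 0.511 in VAT; the cause was not tested.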

Other observations

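Pnpla3 was set against itself across depots by title number, a relation chosen after its values were seen, and in none of the 3 depot pairs did it pass the correction. Its deviations from group means were compared as 3 of 27 relations (9 members, 3 depot pairs) with permutation tests. For BAT and VAT, over 23 numbers, Pearson's r was 0.579 (permutation p = 0.00427, adjusted over 27 relations 0.115) and Spearman's rho 0.648 (permutation p = 0.00204, adjusted 0.0551). Without the 2 rats farthest from the median r was 0.526, and it was 0.726 in males and 0.568 in females. Of 10403 genes compared, 0.433% had a rho at or above it. For SAT and VAT, over 22 numbers, r was 0.493 (permutation p = 0.0195, adjusted 0.263) and rho 0.496 (permutation p = 0.0284, adjusted 0.374), with 0.558 without the 2 farthest rats, 0.124 in males and 0.933 in females. For BAT and SAT, over 23 numbers, r was 0.131 (permutation p = 0.607, adjusted 0.929) and rho 0.118 (permutation p = 0.638, adjusted 0.931), with 0.142 without the 2 farthest rats, -0.001 in males and 0.427 in females, and 39.7% of 10484 genes had a rho at or above it.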
